A study of Mus musculus with 12 samples.

Results

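The complement genes described here were C1ra, C1s1, C1s2, C2, C3, C4b, Cfb and Serping1, which encode the proteases, central components and protease inhibitor at the start of the complement cascade. They were chosen by symbol from the expression table as 8 of its 55401 genes. All 8 had a level of at least 1 TPM (the TPM scale: deposited FPKM rescaled so that each library had the same total) in 12 of 12 libraries. The tumors were grown from 4T1, a mouse mammary carcinoma line, placed orthotopically in Balb/c mice, and RNA of whole tumor tissue was sequenced. The 4 groups, each of 3 tumors with 1 library per tumor, had received an isotype control of IgG1-Fc (control IgG), recombinant interleukin-10 joined to an Fc part (IL-10-Fc), a blocking antibody to CSF1R, the receptor of colony stimulating factor 1 (aCSF1R), or BF10, in which such an antibody carries interleukin-10. In every group dosing began at a tumor volume of 100 mm3. The labels give 6 doses and the series description gives fewer, so the number of doses was uncertain. All libraries came from 1 tumor line in 1 mouse strain.

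Complement is a chain of plasma proteins in which each protease cuts the next. In the classical pathway C1q binds antibody or damaged surfaces and carries the proteases C1r and C1s. C1s cuts C4 and C2, whose fragments form an enzyme that cuts C3, and in the alternative pathway factor B, the product of Cfb, forms the matching enzyme with C3 itself. Serping1 encodes the C1 inhibitor, which inactivates C1r and C1s. The liver makes most of the circulating proteins, while fibroblasts, epithelial cells and macrophages make them locally, C1q comes mainly from macrophages, and interferon-gamma is a known inducer of C2, Cfb, C4, C1s, C1r and Serping1.

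The 8 genes lay in 4 places of the mouse genome (build GRCm38, GENCODE annotation), and several of them have near copies, which bears on how far their levels can be told apart. C1ra (chr6:124512405-124523443, plus strand) and C1s1 (chr6:124530345-124542359, minus strand) were 6901 bases apart, and C1s2 (chr6:124624625-124636085, minus strand) lay 82265 bases beyond C1s1. Cfb (chr17:34856374-34862518) and C2 (chr17:34862604-34898265) were 85 bases apart on the minus strand, and C4b (chr17:34728380-34743882, minus strand) lay 112491 bases from Cfb. C3 (chr17:57203970-57228136) was further along the minus strand of the same chromosome and Serping1 (chr2:84765387-84775444, minus strand) stood alone. Of all stretches of 50 bases in the longest C1s1 transcript, 24.3% also occurred in C1s2, and the matching shares were 48.0% of C1ra in its copy C1rb, 35.2% of C4b in its copy C4a and 0 of C2 in Cfb. A read of such a stretch cannot be assigned to 1 gene by its letters, so the split of C1s1 from C1s2, of C1ra from C1rb and of C4b from C4a in the deposited values is uncertain. The longest stretch that C1s1 and C1s2 shared letter for letter was 229 bases, inside the coding part of both genes and read from 3 exons of each (chr6:124533327-124534431 in C1s1 and chr6:124627544-124628827 in C1s2, minus strand, GRCm38). It is shown because the paired values of these genes rest partly on reads from such sequence.
C1s1 and C1s2, shared coding stretch: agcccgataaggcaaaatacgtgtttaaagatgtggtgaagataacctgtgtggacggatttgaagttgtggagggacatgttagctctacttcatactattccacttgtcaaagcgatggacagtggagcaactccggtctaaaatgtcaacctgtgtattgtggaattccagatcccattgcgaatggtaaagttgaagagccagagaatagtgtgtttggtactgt

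Promoter windows of RefSeq (GRCm38.p6) were at hand for 4 of the 8 genes, C1ra, C1s1, C1s2 and C3. The 150 bases before the start of C1s1 (chr6:124542360-124542509, minus strand), C1s2 (chr6:124636086-124636235, minus strand) and C3 (chr17:57228137-57228286, minus strand) follow, with any match to a searched motif in capitals. For C1ra the 28 bases around its only match to the gamma-activated sequence are given (chr6:124512643-124512670, plus strand), which begins 33 bases after the RefSeq start.
C1s1 promoter: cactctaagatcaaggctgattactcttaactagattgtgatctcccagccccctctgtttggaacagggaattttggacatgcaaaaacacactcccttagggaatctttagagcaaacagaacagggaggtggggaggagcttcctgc
C1s2 promoter: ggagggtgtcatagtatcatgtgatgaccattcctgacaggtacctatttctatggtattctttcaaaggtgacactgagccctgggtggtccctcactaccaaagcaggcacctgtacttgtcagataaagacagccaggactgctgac
C3 promoter: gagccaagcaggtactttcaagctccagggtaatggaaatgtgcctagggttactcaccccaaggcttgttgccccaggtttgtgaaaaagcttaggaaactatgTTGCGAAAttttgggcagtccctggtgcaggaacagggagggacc
C1ra, after the start: aaatgcttcaTTCCCTGAAacattcctc

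The motifs were searched on both strands in windows of 250 bases before to 50 after the start, and matches of different motifs were allowed to overlap. The gamma-activated sequence TTCNNNGAA was in the C1ra window and in 8.3% of all 32851 windows. TTGCNNAA, a pattern bound by C/EBP factors, was in the windows of C1ra, C1s1 and C3 and in 10.8% of all. The core of the interferon-stimulated response element was in none of the 4 and in 3.44% of all windows. TATAAA was in the C3 window, after the start, and in 13.6% of all, and TGANTCA, bound by AP-1, was in none of the 4 and in 7.81% of all. These matches describe letters only, and the C1s2 window held none of them.

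The libraries fell into 2 sets that cross the treatments, and the complement genes differed between them. The deposited FPKM summed to 782919 to 921581 in 5 higher-sum libraries (control IgG replicates 4 and 7, IL-10-Fc replicate 7, aCSF1R replicate 8 and BF10 replicate 6) and to 609695 to 648413 in the other 7, the lower-sum libraries. Mitochondrial genes took 5.90% to 9.26% of the FPKM sum in the former and 3.14% to 3.96% in the latter. With the groups held, 7 of the 8 genes were lower in the higher-sum libraries past an adjusted p of 0.05 (limma) and 1.5-fold. By the same rule 54% of all 15504 tested genes were lower. The median difference was -1.20 on the log2 scale for the 8 genes and -0.68 for all tested genes. C1s2, at -0.63, and Cfb lay above the median of all genes. The FPKM sum that defines the sets is also the divisor of TPM, and its part in these differences was not tested. C3 differed most, by -2.06 on the log2 scale (SE 0.35), C1ra by -1.47 (SE 0.19), and Cfb, at -0.19 (SE 0.25), did not pass. Since 2 of 3 control libraries and 1 of 3 in each treated group were higher-sum, the comparisons of the 8 genes below are also given with the library set as a term in the fit or within the sets. The part of the library sets in a result without that term was not tested. Raw counts were not used here, so counting intervals are not given. The relative depth read from the steps of low FPKM values was 0.99 to 1.16 of control IgG replicate 5. Each value rests on only 5 to 14 genes that shared the commonest ratio, so it is a rough estimate.

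The lowest genes were the same in every tumor, while the order of the others varied. C1s2 and C2 were the lowest of the 8 genes in 12 of 12 libraries, with ranges of 2.05 to 13.1 TPM and 2.66 to 40.8 TPM. Serping1 (27.6 to 313 TPM), C3 (19.7 to 213 TPM) or Cfb (58.7 to 163 TPM) was the highest in every library. C1s1 (22.5 to 157 TPM), C4b (16.5 to 146 TPM) and C1ra (17.9 to 101 TPM) stood between them, with ranges that overlapped those of Serping1, C3 and Cfb. Defining markers of hepatocytes were near 0, with albumin (Alb) at most 0.953 TPM and the 6 hepatocyte markers summed at 1.16 to 15.6 TPM, while the 6 epithelial markers summed to 670 to 2290 TPM. The 10 fibroblast markers summed to 1472 to 10690 TPM.

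**Figure D1:**
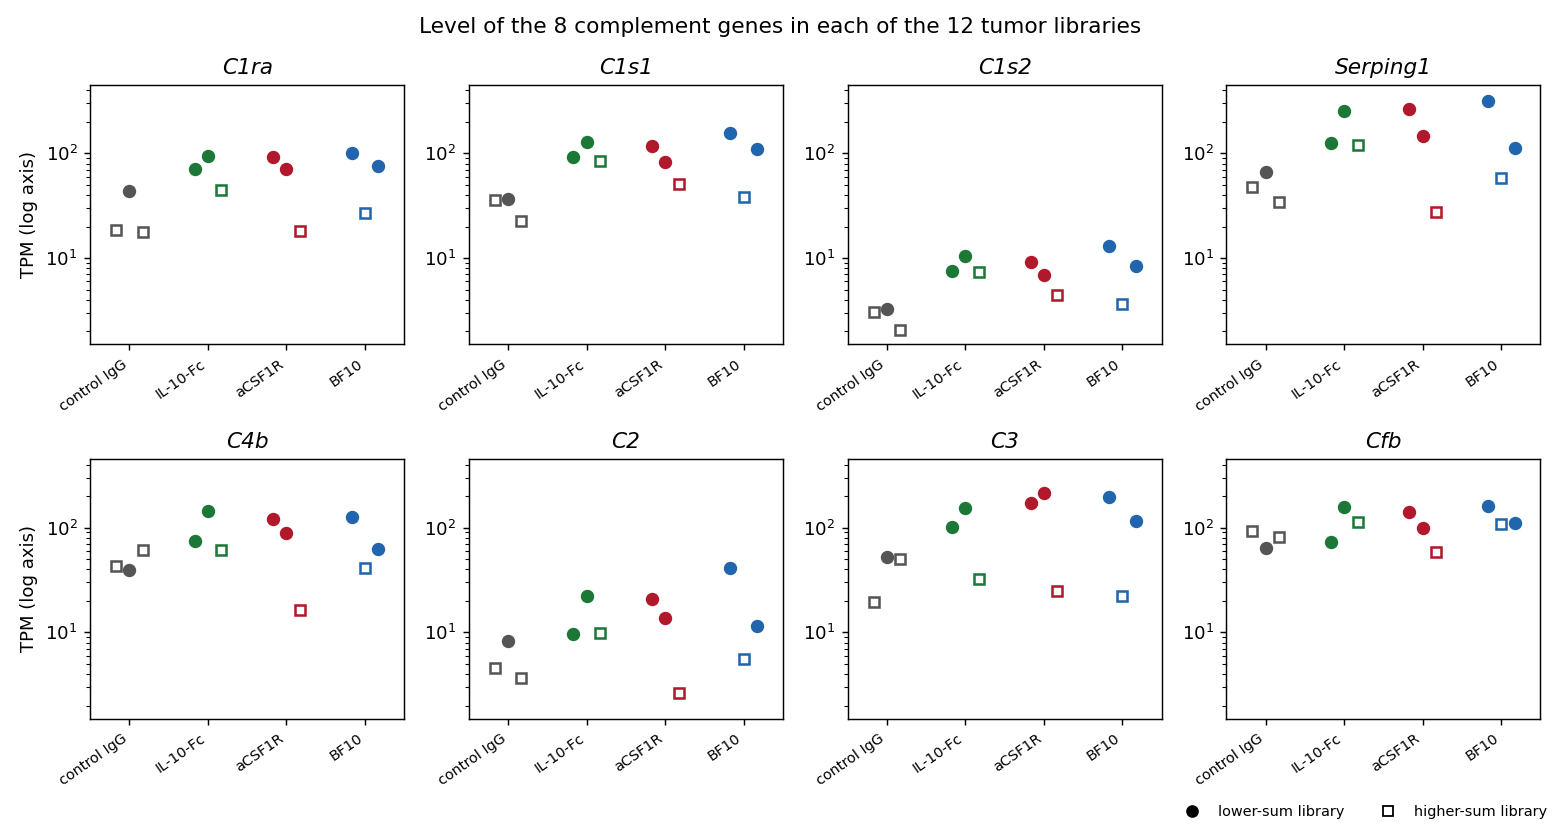
Level of each complement gene in TPM (log axis) in the 12 libraries by group, with filled circles for lower-sum and open squares for higher-sum libraries and no averaging. All 3 IL-10-Fc libraries sit above all 3 control libraries for C1ra, C1s1, C1s2, Serping1 and C2, while the higher-sum aCSF1R library sits low in most panels.

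C1s1 encodes the protease that cuts C4 and C2. It stood at 35.6, 36.7 and 22.5 TPM in control IgG replicates 4, 5 and 7, and at 91.9, 129 and 84.4 TPM in IL-10-Fc replicates 2, 4 and 7. The aCSF1R replicates 4, 6 and 8 had 118, 82.1 and 50.5 TPM, and BF10 replicates 3, 6 and 7 had 157, 38.2 and 110 TPM. Every treated tumor was above every control tumor, the closest being BF10 replicate 6, a higher-sum library. The mean was 31.6 ± 7.89 TPM (SD, n = 3) in control and 102 ± 23.8 TPM in IL-10-Fc, 83.4 ± 33.6 TPM in aCSF1R and 102 ± 59.7 TPM in BF10. On log2(TPM + 1) the difference from control was 1.66 for IL-10-Fc, 1.32 for aCSF1R and 1.46 for BF10 (SE 0.49 each), or 3.16-fold, 2.50-fold and 2.76-fold. With the library set as a term these were 1.38, 1.04 and 1.18. In no form did the difference pass after adjustment over all tested genes. In bulk tissue a change in the number of cells that make a transcript and in the RNA per cell cannot be told apart, here and in all that follows.

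C1s2, the paralog of C1s1, was about an order of magnitude lower with the same profile. Its levels were 3.10, 3.24 and 2.05 TPM in control, 7.51, 10.4 and 7.41 TPM in IL-10-Fc, 9.15, 6.97 and 4.46 TPM in aCSF1R and 13.1, 3.69 and 8.34 TPM in BF10, each in the replicate order above. Again no treated tumor overlapped the controls. The log2 difference was 1.31 for IL-10-Fc, 1.02 for aCSF1R and 1.18 for BF10 (SE 0.41 each), and 1.11, 0.81 and 0.97 once the library set was held. C1s2 amounted to 7.61% to 9.67% of C1s1 in all 12 libraries, and Pearson's r between them was 0.995 over the 12 libraries after the mean of each set was removed, so with the shared sequence shown above its values cannot be read as a separate measurement. An antisense transcript inside C1s1, Gm16567, was at 0 to 6.58 TPM, and the library kit was stranded.

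C1ra encodes the protease that activates C1s. Control tumors had 18.6, 43.9 and 17.9 TPM and IL-10-Fc tumors 71.3, 95.2 and 44.7 TPM, which did not overlap, although the highest control and the lowest IL-10-Fc value were close. The aCSF1R tumors had 91.4, 70.9 and 18.1 TPM and the BF10 tumors 101, 26.8 and 76.0 TPM, and in each the higher-sum library fell within the control range. The log2 difference from control was 1.42 for IL-10-Fc, 0.98 for aCSF1R and 1.24 for BF10 (SE 0.66 each) and 0.93, 0.49 and 0.75 with the library set as a term. The spread of C1ra differed much between the fits, since its SD within groups on the log2 scale was 0.90 and 0.34 once the set was held too. Its copy C1rb was 8.98% to 16.7% of C1ra.

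Serping1 encodes the C1 inhibitor, the brake on C1r and C1s. Its levels were 47.5, 65.8 and 34.7 TPM in control and 126, 252 and 120 TPM in IL-10-Fc, with every IL-10-Fc tumor above every control. The aCSF1R tumors had 262, 145 and 27.6 TPM and the BF10 tumors 313, 58.0 and 112 TPM. Both of these groups overlapped the controls, through aCSF1R replicate 8, the lowest library of all, and BF10 replicate 6, while BF10 replicate 3 held the highest value. The log2 difference was 1.69 for IL-10-Fc, 1.08 for aCSF1R and 1.39 for BF10 (SE 0.79 each), and 1.22, 0.61 and 0.92 with the library set as a term. Relative to its target, Serping1 was 1.33 to 1.79 times C1s1 in control, 1.37 to 1.96 times in IL-10-Fc, 0.546 to 2.23 times in aCSF1R and 1.02 to 2.00 times in BF10, and these ranges overlapped.

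C4b and C2 encode the substrates of C1s. C4b was 42.7, 39.1 and 61.6 TPM in control, 74.1, 146 and 60.5 TPM in IL-10-Fc, 120, 89.4 and 16.5 TPM in aCSF1R and 125, 41.3 and 62.3 TPM in BF10. All 3 treated groups overlapped control, and aCSF1R replicate 8 was the lowest library of all. Its log2 differences of 0.88, 0.27 and 0.54 (SE 0.67 each) for IL-10-Fc, aCSF1R and BF10 were among the smallest, and the aCSF1R difference was -0.07 with the library set as a term and -0.27 without aCSF1R replicate 4. The copy C4a was 3.08% to 9.25% of C4b. C2 was 4.58, 8.23 and 3.65 TPM in control, 9.74, 22.5 and 9.80 TPM in IL-10-Fc, 20.8, 13.8 and 2.66 TPM in aCSF1R and 40.8, 5.55 and 11.5 TPM in BF10. Only the IL-10-Fc tumors stood clear of the controls for C2, and BF10 replicate 3 was far above the other BF10 tumors. The differences of C2 were 2.25-fold, 1.70-fold and 2.43-fold on log2(TPM + 1), with an SE of 0.77 on the log2 scale, and with the library set held they were 0.71, 0.31 and 0.82 on that scale.

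Cfb encodes factor B, the counterpart of C2 in the alternative pathway and its neighbour in the genome. It was 93.4, 63.4 and 81.9 TPM in control, 72.2, 156 and 112 TPM in IL-10-Fc, 142, 100 and 58.7 TPM in aCSF1R and 163, 109 and 110 TPM in BF10. The 3 BF10 tumors stood above the 3 controls, and the other groups overlapped them. Cfb varied least of the 8 genes, 2.77-fold from the lowest to the highest library against 15.4-fold for C2, and its log2 differences were 0.46 for IL-10-Fc, 0.26 for aCSF1R and 0.66 for BF10 (SE 0.37 each). The library set moved it least, to 0.39, 0.20 and 0.60, while without aCSF1R replicate 4 its aCSF1R difference was -0.03. C2 was 4.45% to 25.1% of Cfb. Gm20547, a transcript annotated across C2 and Cfb with which 81.4% of the 50-base stretches of Cfb and 58.0% of those of C2 were shared, was listed at 0 in most libraries and reached 0.460 TPM.

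C3 encodes the central component on which the pathways meet. It was 19.7, 52.7 and 50.8 TPM in control and 101, 152 and 32.5 TPM in IL-10-Fc. In aCSF1R it was 170, 213 and 24.8 TPM and in BF10 198, 22.3 and 117 TPM. Each treated group held 2 tumors above every control and 1, the higher-sum library, within the control range. C3 had the widest spread of the 8 genes, an SD within groups of 1.35 on the log2 scale, and its log2 differences of 1.06, 1.35 and 1.08 (SE 0.97 each) for IL-10-Fc, aCSF1R and BF10 became 0.38, 0.66 and 0.40 with the library set as a term. Of the 8 genes C3 alone had its largest difference in aCSF1R, by less than its SE.

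Against control IgG, all 8 genes were higher on average in each treated group and none passed the threshold (limma, adjusted p below 0.05 over 15504 genes and at least 1.5-fold). For IL-10-Fc the median of the 8 log2 differences was 1.24 against 0.35 over all tested genes, and 0 of 8 were called at an adjusted p of 0.738 each, where the share called among all genes was 0.00645%. At an unadjusted p below 0.05 (limma), C1s1 and C1s2 passed, and 1.03% of all genes passed in that direction. Since C1s2 cannot be read as a separate measurement, this pair counts as 1 signal here and in the BF10 and aCSF1R comparisons. In 5 of the 8 (C1ra, C1s1, C1s2, Serping1 and C2) the groups did not overlap, beside 4.75% of all genes. The controls are shared by the 3 comparisons, so the treated groups are not independent of each other in this respect.

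For BF10 the median was 1.21 against 0.32 over all genes, and 0 of 8 were called at an adjusted p of 0.788 each (limma), beside a share of 0% of all genes. C1s1 and C1s2 again passed an unadjusted p below 0.05, beside 0.987% of all genes. The groups did not overlap for C1s1, C1s2 and Cfb, beside 2.36% of all genes. The 95% intervals of the 8 differences reached from -1.05 to 3.22 on the log2 scale, and those of C1s1 and C1s2 alone lay above 0. Single tumors moved this median, to 0.64 when BF10 replicate 3 was left out and to 1.84 when BF10 replicate 6 was.

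For aCSF1R the median was 1.00 against 0.24 over all genes, and 0 of 8 were called at adjusted p-values of 0.893 to 0.899 (limma), beside 0.568% of all genes, which were all lower. C1s1 and C1s2 passed an unadjusted p below 0.05 (limma), beside 0.903% of all genes, and the same pair did not overlap control, beside 1.61% of all genes. Both counts rest on this pair alone, which is not a set of separate measurements. The median was 0.47 without aCSF1R replicate 4 and 1.59 without aCSF1R replicate 8. Once the library set was held, the lowest adjusted p of the 8 genes was 0.239 (limma), for C1s1.

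**Figure D2:**
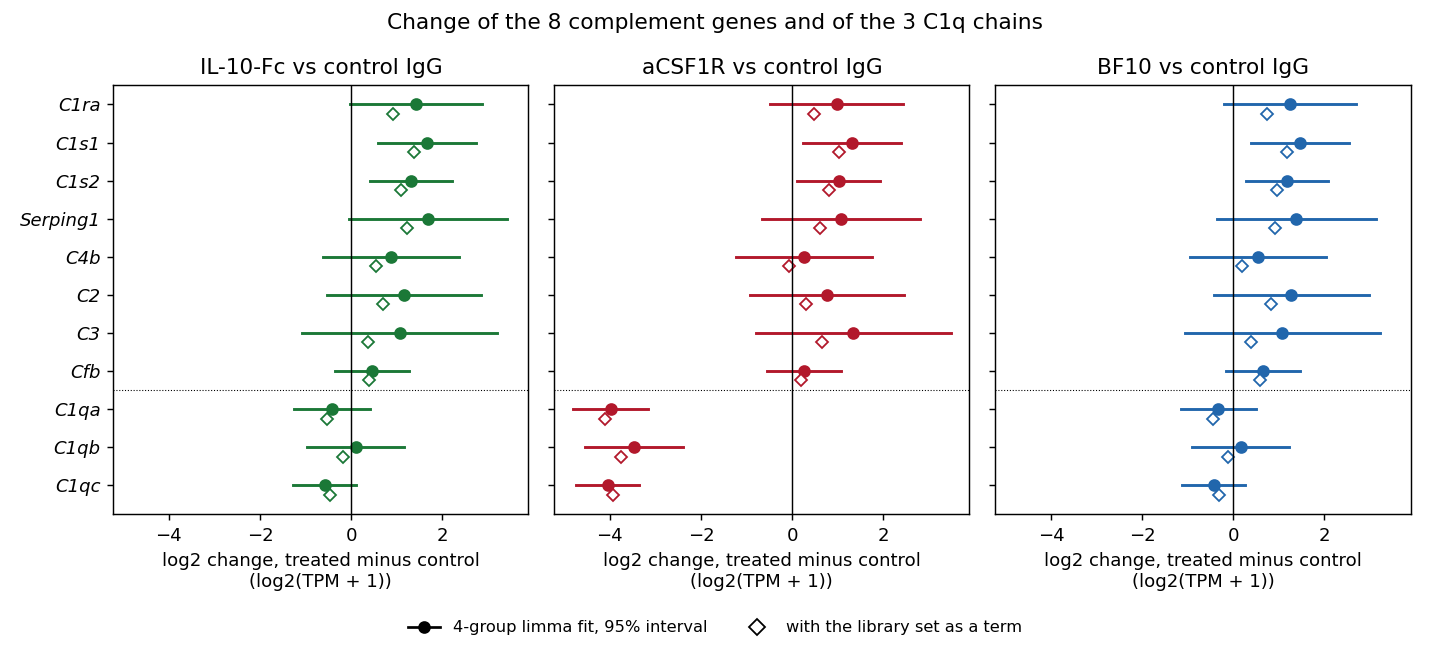
Log2 difference from control IgG on log2(TPM + 1) for the 8 complement genes and, under the dotted line, the 3 C1q chains, with circles and 95% intervals from the fit of 4 group means (3 libraries each) and open diamonds from the fit with the library set as a term. The 8 genes lie right of 0 in all 3 panels apart from C4b in aCSF1R with the set term, and the C1q chains lie at -3.47 to -4.05 in aCSF1R.

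Holding the library set lowered the medians of the 8 genes to 0.82 for IL-10-Fc, 0.79 for BF10 and 0.55 for aCSF1R, while the medians of all genes became 0.10, 0.07 and 0.01. In that fit 0 of the 8 genes were called (limma), beside 0.0258% of all genes for IL-10-Fc, 0.00645% for BF10 and 2.01% for aCSF1R. Within the lower-sum libraries, with control IgG replicate 5 as the only control, 8 of 8 genes were higher in each treated group, by medians of 1.22, 1.38 and 1.24 for IL-10-Fc, BF10 and aCSF1R. Within the higher-sum libraries, with 1 treated library each against 2 controls, 8 of 8 were higher for IL-10-Fc (median 1.17), 6 of 8 for BF10 (median 0.39, C3 and C4b lower) and 2 of 8 for aCSF1R (median -0.41, C1s1 and C1s2 higher). The direction in aCSF1R therefore differed between the sets for 6 of the 8 genes. These values rest on 1 library on 1 side, so they have no test.

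**Figure D3:**
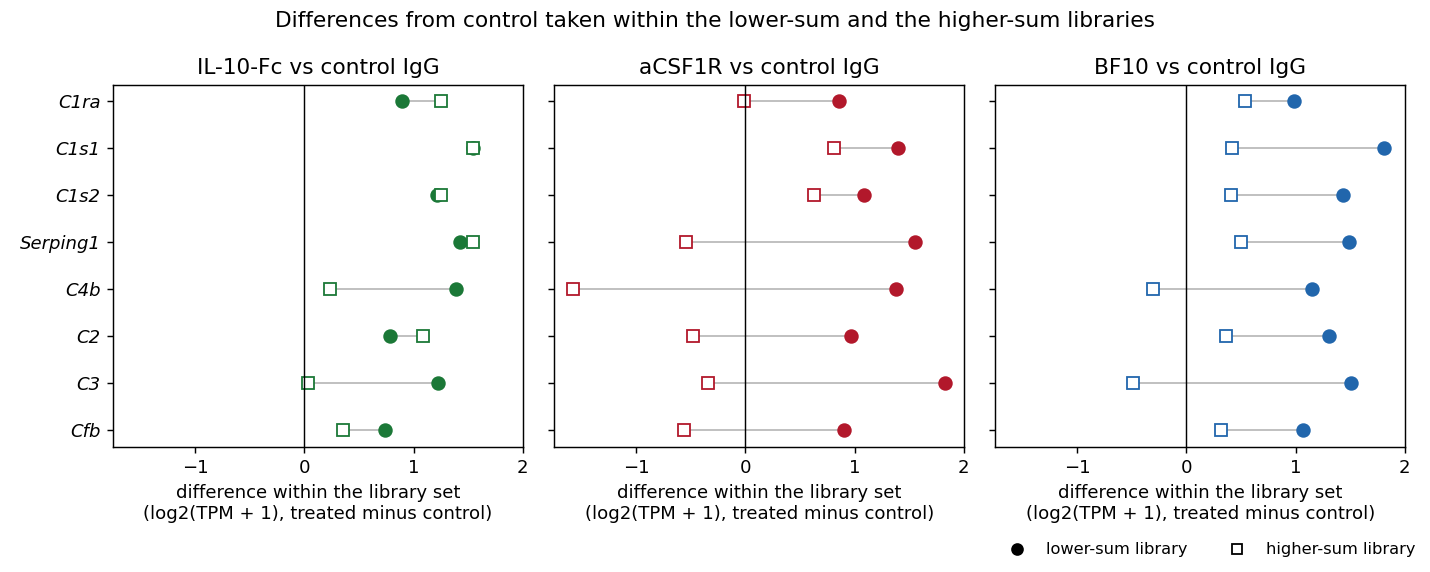
Difference from control on log2(TPM + 1) taken within the lower-sum libraries (filled circles, 2 treated against 1 control) and within the higher-sum libraries (open squares, 1 treated against 2 controls) for each gene. The 2 marks lie on the same side of 0 for all 8 genes in IL-10-Fc, for 6 in BF10 and for 2 in aCSF1R.

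Between the treated groups none of the 8 genes passed the threshold (limma, adjusted p of 1 for each). BF10 minus IL-10-Fc ranged from -0.34 for C4b to 0.21 for Cfb on the log2 scale, with a median of -0.15 and 3 of 8 higher in BF10, beside 0% of all genes called. BF10 minus aCSF1R ranged from -0.26 for C3 to 0.51 for C2, with a median of 0.27, beside 0.735% of all genes called. IL-10-Fc minus aCSF1R ranged from -0.28 for C3 to 0.61 for Serping1, with a median of 0.37, beside 0.542% of all genes called. No gene of the 8 had an unadjusted p below 0.05 in these comparisons, beside 0.271%, 4.26% and 3.56% of all genes. With the library set held, 0 of 8 were called as well (limma), beside 0%, 2.82% and 2.13% of all genes. The medians changed sign when single tumors were left out, to 0.34 for BF10 minus IL-10-Fc without BF10 replicate 6, and to -0.34 for BF10 minus aCSF1R and -0.26 for IL-10-Fc minus aCSF1R without aCSF1R replicate 8. The intervals of single genes, from -2.42 to 2.35 over the 3 comparisons, leave room for differences of several-fold either way. The directions differed between the library sets, without a test: BF10 was higher than IL-10-Fc for 7 of 8 genes within the lower-sum libraries (median 0.24) and for 0 of 8 within the higher-sum ones (median -0.72). IL-10-Fc was higher than aCSF1R for 4 of 8 in the lower-sum libraries (median -0.06) and for 8 of 8 in the higher-sum ones (median 1.09), and BF10 was higher than aCSF1R for 5 of 8 in each (medians 0.14 and 0.69).

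The C1q chains, which form the recognition part that carries C1r and C1s, had a different profile from the proteases. C1qa, the A chain, was 636, 623 and 823 TPM in control, 543, 545 and 459 TPM in IL-10-Fc, 76.1, 49.2 and 20.6 TPM in aCSF1R and 496, 589 and 572 TPM in BF10. All 3 aCSF1R tumors were far below the other 9. C1qa, C1qb and C1qc fell in aCSF1R against control, with log2 differences of -3.98, -3.47 and -4.05 (adjusted p of 0.000685, 0.00656 and 0.000212, limma), or -4.10, -3.75 and -3.94 with the library set held, and they were higher in BF10 and in IL-10-Fc than in aCSF1R by 3.47 to 3.66. They did not pass in BF10 or IL-10-Fc against control. The 10 macrophage markers summed to 326 to 425 TPM in control and 26.9 to 103 TPM in aCSF1R, and 4 of the 10 (Adgre1, Mrc1, Fcgr1 and Msr1) fell past the threshold there, beside 0.568% of all genes. With the library set held 8 of the 10 fell, beside 2.01% of all genes. Their part in the C1q result was not tested.

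The balance of recognition subunit to protease within a tumor was then taken as a ratio. C1qa was 17.0 to 36.6 times C1s1 in control, 4.23 to 5.91 times in IL-10-Fc, 3.16 to 15.4 times in BF10 and 0.407 to 0.646 times in aCSF1R. No treated tumor reached the control range, and the aCSF1R tumors were the only ones with more C1s1 than C1qa. The mean log2 ratio was lower than in control by 2.12 in IL-10-Fc, 1.81 in BF10 and 5.37 in aCSF1R, with an exact two-sided permutation p of 0.1 each, the smallest that 3 against 3 tumors can give, and 0.48 after adjustment over 24 ratio tests. Within the lower-sum libraries the ratio was 17.0 in the only control and at most 5.91 in the treated tumors, and within the higher-sum libraries it was 17.8 and 36.6 in control against 0.407 for the aCSF1R tumor, 5.44 for the IL-10-Fc tumor and 15.4 for the BF10 tumor. The ratio to C1ra gave 14.2 to 46.1 in control, 5.72 to 10.3 in IL-10-Fc, 4.89 to 22.0 in BF10 and 0.694 to 1.14 in aCSF1R, where the BF10 range overlapped the control range through BF10 replicate 6.

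**Figure D4:**
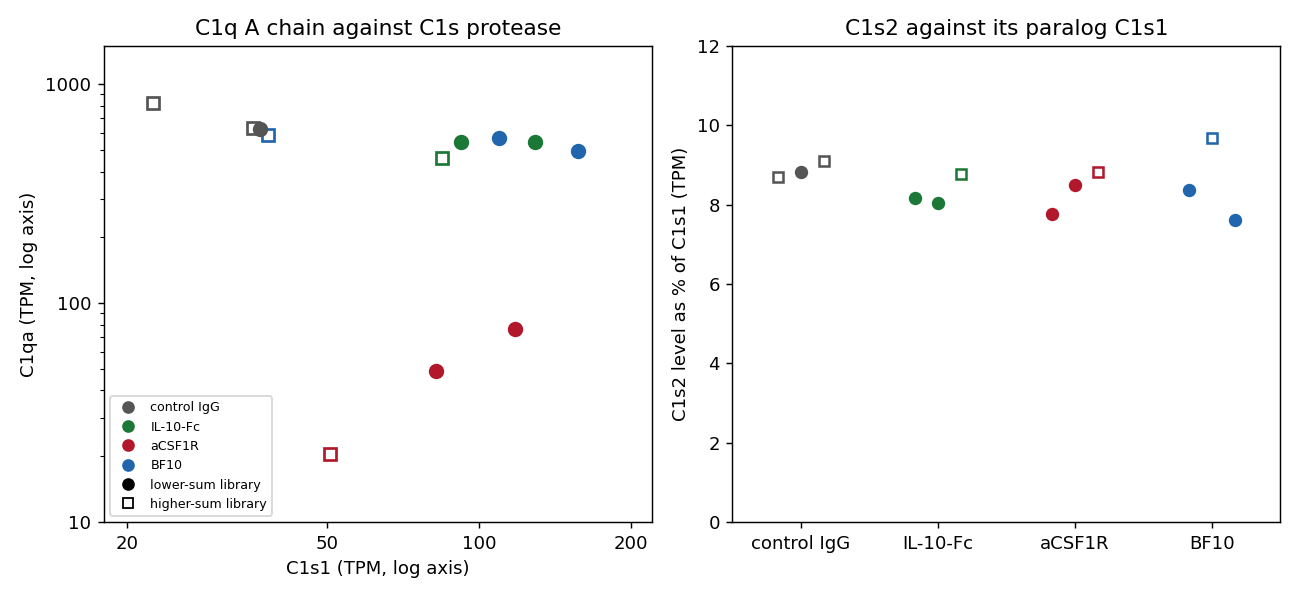
Left, C1qa against C1s1 in TPM (log axes) for the 12 libraries, coloured by group, with filled circles for lower-sum and open squares for higher-sum libraries. Right, C1s2 as a percentage of C1s1 by group. The 3 aCSF1R tumors form the low group at 20.6 to 76.1 TPM of C1qa, and the C1s2 share stays between 7.61% and 9.67%.

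Of 44 other complement genes listed, 29 were tested. In aCSF1R against control 5 of the 29 fell and 0 rose, beside 0.568% of all genes: the 3 C1q chains, Fcna (ficolin A, a lectin-pathway recognition protein, by 2.58 on the log2 scale, adjusted p of 0.00364) and Cfp (properdin, which stabilises the alternative-pathway enzyme, by 2.40, adjusted p of 0.00246). With the library set as a term 10 fell, beside 2.01% of all genes, with Itgb2, Itgam, Itgax, C3ar1 and C5ar1, which encode receptors for C3 and C5 fragments, in addition. BF10 was higher than aCSF1R for 4 of the 29 (0.735% of all genes passed) and IL-10-Fc for 5 (0.542%). With the library set held these counts were 10 (2.82%) and 11 (2.13%). In BF10 or IL-10-Fc against control, or between them, 0 passed without that term (limma). Cfd, which encodes the protease that cuts factor B, ranged from 0.705 to 227 TPM and did not pass in any comparison. The terminal genes C8a, C8b and C9 were at most 0.0984 TPM and the 7 terminal-pathway genes together summed to at most 12.7 TPM, against 203 to 1111 TPM for the 8 early genes together.

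The 8 genes moved together from tumor to tumor. Over 28 pairs, Pearson's r across the 12 libraries had a median of 0.829 and, after the mean of each library set was removed, 0.763, with a lowest value of 0.419 for C1s1 with C4b. These points share libraries and groups, so the values are descriptions. Pairs of other genes were not taken for comparison, and C1s2 is not a separate measurement from C1s1. BF10 replicate 3 held the highest value for 6 of the 8 genes, and aCSF1R replicate 4 was among the 3 highest libraries for 8 of 8. At the other end aCSF1R replicate 8 was the lowest for 4 genes and control IgG replicate 7 for 3. BF10 replicate 3 also held the highest sums of fibroblast markers (10690 TPM) and neutrophil markers (16420 TPM, against 429 to 3343 TPM elsewhere), whose part in its complement levels was not tested.

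Genes whose profile was most like each of the 8, by Pearson's r over the 12 libraries with the set means removed, were taken as a description. For C1ra these were Serpina3g (0.967), Tnfaip3 (0.946) and Rem1 (0.945), and for Serping1 they were Rem1 (0.969), Medag (0.963) and A4galt (0.957). C2 was near to Olfml1 (0.973) and Fbln1 (0.970), and C4b to Efemp1 (0.967), Entpd2 (0.956) and Clec3b (0.947). After its paralog, C1s1 was nearest to Cxcl11 (0.928) and Olfr56 (0.922). With the set means kept, r with C1s1 was 0.348 for Cxcl11 and 0.956 for Olfr56. C3 was near to AI838599 (0.914) and Ctla4 (0.844), for which r with the set means kept was 0.838 and 0.414. Cfb was near to C2, Pi16 (0.900 each) and Agtpbp1 (0.898).

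Genes of the interferon-gamma response were listed because the early complement genes are known targets of that cytokine. The 12 genes summed to 845 to 1203 TPM in control and 1549 to 2186 TPM in IL-10-Fc. For aCSF1R the range was 1209 to 2092 TPM, and for BF10 it was 1424 to 2324 TPM. No treated tumor overlapped control, but aCSF1R replicate 8 (1209 TPM) lay just above control IgG replicate 5 (1203 TPM). Of all single genes, 4.75% (IL-10-Fc), 1.61% (aCSF1R) and 2.36% (BF10) lay above control without overlap. No such share was taken for sums of genes. Among higher-sum libraries the controls had 845 and 1104 TPM and the treated tumors 1209 to 1549 TPM. Among lower-sum libraries the only control had 1203 TPM and the treated tumors 1986 to 2324 TPM. All 12 genes were higher on average in each treated group, by log2 medians of 1.02 (IL-10-Fc), 0.77 (aCSF1R) and 0.93 (BF10). The medians over all tested genes were 0.35, 0.24 and 0.32. In each comparison 0 of the 12 listed genes passed (limma), beside 0.00645% (IL-10-Fc), 0.568% (aCSF1R) and 0% (BF10) of all genes. With the library set as a term Gbp5, a guanylate-binding protein gene, rose in IL-10-Fc by 1.07 (limma, adjusted p of 0.0473), beside 0.0258% of all genes called. In aCSF1R Gbp5, Gbp3 and Igtp rose by 0.82, 0.84 and 0.72 (limma, adjusted p of 0.0109, 0.0214 and 0.0318), beside 2.01% of all genes called. Over all genes the calls in aCSF1R were 12 higher and 300 lower. In BF10 0 of the 12 listed genes passed, beside 0.00645% of all genes. The 8 acute-phase and IL-6/STAT3 response genes summed to 572 to 897 TPM in control, 774 to 1082 TPM in IL-10-Fc, 1155 to 1480 TPM in aCSF1R and 850 to 1536 TPM in BF10. Fibroblast markers summed to 1472 to 3858 TPM in control, 3781 to 7140 TPM in IL-10-Fc, 1765 to 6498 TPM in aCSF1R and 2569 to 10690 TPM in BF10. Of these lists 0 of 8 and 0 of 10 passed in any comparison, beside 0% to 0.735% of all genes. The 6 adipocyte markers were all higher on average in each treated group, by log2 medians of 0.92 (IL-10-Fc), 1.39 (aCSF1R) and 1.48 (BF10). Of these, 0 of 6 passed, beside 0.00645%, 0.568% and 0% of all genes in the same order. Their sum ran from 3.25 to 40.8 TPM in control and from 46.0 to 83.3 TPM in BF10, which did not overlap, beside 2.36% of all single genes. The IL-10-Fc range (8.92 to 81.3 TPM) and the aCSF1R range (1.57 to 135 TPM) overlapped the control range. The part of these cells and of this response in the complement levels was not tested.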

How the data were processed

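Bulk RNA-seq covered 12 orthotopic 4T1 tumors. Per the labels, TRIzol RNA went into stranded mRNA libraries; the submitters' processing notes name STAR 2.7.5a, RSEM 1.3.3, DESeq2 1.28.0 and the builds mm10 and GRCm38. The authors deposited FPKM values with 2 decimals for 55401 genes. Their 4 tables of DESeq2 comparisons (fold changes, p-values, mean counts) were not used here, and 0 columns of the FPKM table lacked a sample.

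Each FPKM value was divided by its library sum (TPM), since sums differed between libraries. Genes with TPM of at least 1 in at least 3 libraries were tested, 15504 of the 34194 above 0. limma 3.58.1 in R 4.3.3 (eBayes with trend) was fitted to log2(TPM + 1), a scale that understates changes of low genes, with 1 mean per group over 12 libraries and 8 residual degrees of freedom. A gene was called at a Benjamini-Hochberg adjusted p below 0.05 and 1.5-fold. The fit was run on simulated data that held no difference between library sets, so that run cannot show how it behaves with such a difference. The genes, gene lists and library sets (FPKM sums above or below 700000) were chosen with earlier results of these data known. All 8 genes are named in every comparison with control, and between the treated groups only those with the lowest and highest difference. Other listed genes are named mainly where past the threshold. Cfd, Alb and the terminal genes were named after their values were seen. Some single genes of the lists and of the most similar profiles are not reported here. Of the other cell type lists, the T cell, endothelial, epithelial, adipocyte, monocyte, neutrophil and hepatocyte markers had 0 genes called in BF10 or IL-10-Fc against control, and in aCSF1R 1 monocyte marker (Ccr2) fell. The labels do not say that tumors of a group came from separate litters or batches. p-values rest on the spread between libraries, 1 per tumor. Without the set term that spread includes the difference between the library sets.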

Additional observations from a re-analysis of the deposited data

How the results depend on the processing

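No setting called any of the 8 genes in any comparison. Against control, 476 of 480 refits (24 differences, 20 alternatives) kept direction and call. The 4 reversals were in aCSF1R: C4b at -0.0694 with the library set as a term, -0.27 without replicate 4 and -0.06 without replicate 6 (1.13 without replicate 8), and Cfb at -0.0334 without replicate 4 (0.60 without replicate 8). Over all alternatives the adjusted p (limma) went no lower than 0.326 (BF10), 0.318 (IL-10-Fc) and 0.053 (aCSF1R, with the replicate block). The replicate block leaves few residual degrees of freedom.

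Counts over all genes moved more. In BF10 against control (0) they were 1 with the library set as a term and 1 with the replicate block. In IL-10-Fc against control (1) they were 0 with FPKM as deposited, 0 with a pseudocount of 0.1, 2 without a filter, 0 with only the 2 groups, 4 with the set term and 0 with the block. In aCSF1R against control (88) they were 136 with median-of-ratios scaling, 4 with only the 2 groups, 312 with the set term and 0 with the block. In BF10 against IL-10-Fc (0), median-of-ratios scaling, no filter, only the 2 groups and the block gave 1 each. In BF10 against aCSF1R (114), only the 2 groups gave 0, the set term 437 and the block 1. In IL-10-Fc against aCSF1R (84), only the 2 groups gave 12, the set term 330 and the block 1. Leaving out 1 library gave 0 to 0 in BF10 against control, 0 to 1 in IL-10-Fc against control, 55 to 91 in aCSF1R against control, 0 to 1 in BF10 against IL-10-Fc, 54 to 108 in BF10 against aCSF1R and 24 to 92 in IL-10-Fc against aCSF1R. The causes were not tested.

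The median difference of the 8 genes ranged, leaving out 1 library, against control from 0.64 to 1.84 in BF10, from 0.98 to 1.54 in IL-10-Fc and from 0.47 to 1.59 in aCSF1R, from -0.62 to 0.34 for BF10 minus IL-10-Fc, from -0.34 to 0.70 for BF10 minus aCSF1R and from -0.26 to 0.75 for IL-10-Fc minus aCSF1R. With the replicate block it was 2.13 for aCSF1R against control and -0.73 for BF10 minus aCSF1R. A library whose number occurs only once adds nothing to the differences in that fit. These were aCSF1R replicate 8, control IgG replicate 5, BF10 replicate 3 and IL-10-Fc replicate 2. The deviations of same-numbered libraries from their group means correlated at -0.66 to 0.42 over 7 pairs. The difference between the library sets was not removed from them, so these values cannot show whether a number marks a pairing of animals. With 3 tumors a group and intervals of several-fold, modest differences were not detectable.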
